A study of Mus musculus with 2 samples.

Results

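CoREST is a corepressor assembly in which an RCOR scaffold protein joins the histone demethylase LSD1, encoded by Kdm1a, to the deacetylases HDAC1 and HDAC2. The genes described are those of this assembly and of 2 proteins found with it, Zmym2 and Gse1. They are the 8 protein-coding genes Kdm1a, Rcor1, Rcor2, Rcor3, Hdac1, Hdac2, Zmym2 and Gse1, of 21631 protein-coding genes in RefSeq on mouse chromosomes 1 to 19 and X. They were chosen by complex membership, and Gse1 also because it carried more Brg1 islands than any other gene. Island numbers of these genes are therefore a description, with no test.

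LSD1 removes methyl groups from lysine 4 of histone H3, and HDAC1 and HDAC2 remove acetyl groups from histone tails, so the assembly takes away marks of active chromatin on nucleosomes. The RCOR proteins couple these activities and bring LSD1 to nucleosomes. In the nervous system CoREST is best known as a partner of REST, the repressor of neuronal genes outside mature neurons, and it also acts in neural progenitors. Brg1, encoded by Smarca4, is an ATPase of the BAF (SWI/SNF) chromatin remodelling complex, which moves and evicts nucleosomes.

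Chromatin from medulloblastoma cells was immunoprecipitated in 1 library with the J1 antibody, which is directed against Brg1 and its paralogue Brm. The tumours formed spontaneously in mice carrying CAG-CreER, a tamoxifen-dependent Cre under a broadly active promoter, and Rosa26-SmoM2, a conditional allele of an activated Smoothened. An input library of the same genotype is not analysed here. Neither the number nor the age of the animals is given in the sources used here. With 1 library there is no error between animals, and intervals below cover counting error only.

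The library is represented by 5727 enriched regions (islands) holding 472238 reads, with a median of 68 reads (interquartile range 56 to 86), a median width of 2200 bp and a median density of 6.27 reads per 200 bp. How many reads the library held in all is unknown. A gene was counted as having an island if any base of it lay in the gene or within 5 kb. A gene without an island held no region that passed the caller, which does not show that Brg1 was absent.

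Of the 8 genes, 4 had an island and 4 had none, where 16.9% of all protein-coding genes had one. Since Gse1 was chosen for its islands, nothing is read from this share. The 4 genes were Kdm1a, Rcor2, Zmym2 and Gse1. Each of them had an island across a transcription start listed by RefSeq. Together they held 25 distinct islands, of which 22 were in Gse1. Of the 8 genes, 6 are 20 to 80 kb long, and 2 of these, Kdm1a and Zmym2, had an island; 18.5% of 6839 protein-coding genes of that length had one.

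The RefSeq promoter table (GRCm38.p6, which is mm10) matched 7 of the 8 genes, all but Hdac1, with 10 listed starts. The 250 bases before a start overlapped an island in 4 of the 7 genes and not in Rcor1, Rcor3 and Hdac2. Over all genes in that table the share was 8.81% of 17274. Shown first are the windows under an island at Kdm1a, Rcor2 and Zmym2 and at the first listed start of Gse1, and then that of Rcor1, which had no island, for contrast. Each is written 5′ to 3′ on the strand of the gene, ending at the base before the start. Capitals mark the GC box GGGCGG and the CCAAT box CCAAT on either strand.
Kdm1a, chr4:136602724-136602973, minus strand: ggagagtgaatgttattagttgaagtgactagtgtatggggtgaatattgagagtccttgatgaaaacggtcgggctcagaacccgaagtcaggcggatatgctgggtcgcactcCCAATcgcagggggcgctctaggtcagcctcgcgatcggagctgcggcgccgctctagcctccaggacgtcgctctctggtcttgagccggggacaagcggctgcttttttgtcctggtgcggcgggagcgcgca
Rcor2, chr19:7267144-7267393, plus strand: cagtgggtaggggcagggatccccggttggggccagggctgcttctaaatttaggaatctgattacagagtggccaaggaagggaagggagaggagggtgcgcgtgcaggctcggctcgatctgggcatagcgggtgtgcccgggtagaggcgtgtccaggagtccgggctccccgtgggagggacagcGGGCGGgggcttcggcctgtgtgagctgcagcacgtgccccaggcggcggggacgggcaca
Zmym2, chr14:56886353-56886602, plus strand: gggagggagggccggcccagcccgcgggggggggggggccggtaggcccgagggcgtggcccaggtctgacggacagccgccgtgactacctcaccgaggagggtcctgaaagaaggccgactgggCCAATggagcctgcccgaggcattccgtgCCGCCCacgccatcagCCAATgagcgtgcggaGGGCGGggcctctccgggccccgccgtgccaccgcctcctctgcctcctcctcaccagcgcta
Gse1, chr8:120488616-120488865, plus strand: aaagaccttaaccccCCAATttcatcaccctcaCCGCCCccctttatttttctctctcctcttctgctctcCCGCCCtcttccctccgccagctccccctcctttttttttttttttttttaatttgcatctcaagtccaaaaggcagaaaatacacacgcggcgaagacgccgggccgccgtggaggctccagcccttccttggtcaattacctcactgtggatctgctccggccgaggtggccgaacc
Rcor1, chr12:111039117-111039366, plus strand: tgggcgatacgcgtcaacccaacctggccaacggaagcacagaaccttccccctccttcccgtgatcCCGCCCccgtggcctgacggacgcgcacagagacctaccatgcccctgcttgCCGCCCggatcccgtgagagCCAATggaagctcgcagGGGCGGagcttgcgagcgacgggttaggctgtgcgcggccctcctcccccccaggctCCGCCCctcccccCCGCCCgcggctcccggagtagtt

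Member windows with and without an island overlapped in base content, while in the whole table the medians differed. The GC content of the windows under an island was 54 to 74.8%, and that of the 3 windows without one was 68.8 to 82.8%, against a median of 55.6% over 21045 windows. In the whole table the median was 64% under an island and 54.8% without one. The ratio of observed to expected CpG was 0.62 to 0.99 under an island and 0.84 to 0.93 without one, against a median of 0.54, which was 0.81 under an island and 0.49 without one. A GC box was found in 5 of 7 windows under an island and in 3 of 3 without, and in 43.1% of all windows, 66.6% under an island and 40.8% without one. The CCAAT box was found in 3 of 7 and in 1 of 3, and in 35.6% of all windows. The Zmym2 window held 2 CCAAT boxes and 2 GC boxes, while that of Rcor1 held 1 CCAAT box and 5 GC boxes.

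Of the other motifs searched on both strands, the E-box CANNTG, to which bHLH factors bind, was found in 2 of the 10 member windows against 62.8% of all windows, 49.8% under an island and 64.1% without one. It occurred 3 times at the second start of Gse1 and 1 time at Rcor2. The match at Rcor2 was CACGTG, the form bound by Myc and Max, which 6.70% of all windows held. E-boxes include CACGTG, so this match is counted under both. No member window held TATAAA (11.7% of all windows), the CRE TGACGTCA (1.94%), the Gli motif TGGGTGGTC (0.162%) or the NFI motif, whose half-sites are TTGGC and GCCAA (0.0333%). A match is a string of letters and not a measured binding site.

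Kdm1a encodes LSD1, the demethylase at the centre of the assembly. It had 1 island at its 5′ end (chr4:136601686-136603285, 52 reads, exact Poisson 95% interval 38.8 to 68.2). The island reached from 562 bp before the listed start to 1037 bp after it. It was the narrowest of the start-site islands, at 1600 bp. The median of the 475 islands of that width was 55 reads, so its count was typical for its width. The testis gene Tex46, whose nearer end is 4303 bp beyond that of Kdm1a, lay within 5 kb of the same island. On the other side Luzp1, which overlaps the 3′ end of Kdm1a, had an island of its own with 122 reads that did not count for Kdm1a.

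Rcor2 encodes the scaffold protein of embryonic stem cells and neural progenitors, and it was the only RCOR gene of the 3 with an island. The island (chr19:7264711-7269110, 4400 bp) held 133 reads (exact Poisson 95% interval 111 to 158). It began 2683 bp before the start and ended 1716 bp inside this 7.83 kb gene. Islands of that width had a median of 121 reads. It lay within 5 kb of no other protein-coding gene, although the nearer end of Mark2, a kinase gene, lies 170 bp beyond the far end of Rcor2. Neither Mark2 nor Naa40 on the other side had an island.

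Zmym2 encodes a MYM-type zinc finger protein that binds the LSD1-CoREST-HDAC assembly and SUMO. Its 1 island (chr14:56885164-56888963, 3800 bp) held 129 reads (exact Poisson 95% interval 108 to 153) and covered both listed starts. It extended 1439 bp before the first start and 2360 bp after it. The median of the 126 islands of this width was 107 reads, just under the lower bound of the interval. Neither neighbour, the paralogue Zmym5 or Gm36789, had an island.

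The Poisson intervals of Rcor2 and Zmym2 overlap, and that of Kdm1a lies below both. Per 200 bp the order is different: 6.79 reads at Zmym2, 6.5 at Kdm1a and 6.05 at Rcor2. Kdm1a was just below the median of islands of its width, and Rcor2 and Zmym2 were above theirs.

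**Figure D1:**
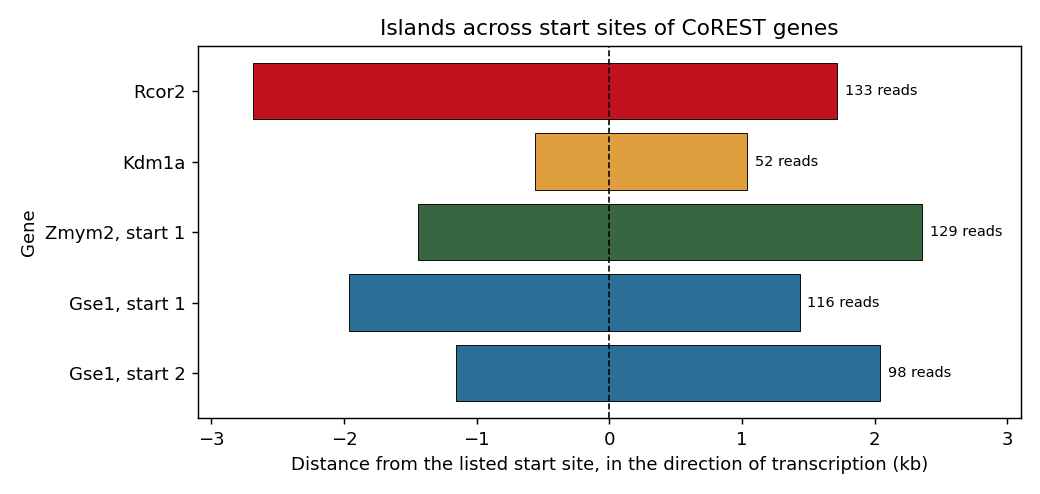
Extent of each island that covers a listed start of a CoREST gene, in kb from that start in the direction of transcription (negative, before the start), 1 bar per island with its reads. The Kdm1a island, at 52 reads, is the narrowest of the 5, and all 5 reach to both sides of the start; the lower Gse1 bar also covers the last listed start, and the Zmym2 bar the second.

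Hdac1 and Hdac2, the genes of both deacetylases, had no island within 5 kb. The nearest to Hdac1 lay 76.3 kb away, a narrow island of 400 bp and 28 reads (chr4:129618957-129619356). The nearest to Hdac2 lay 135 kb away (chr10:37137195-37141594, 162 reads), and overlaps Marcks, an actin-binding protein gene. Rcor1, the scaffold gene first described in this assembly, had its nearest island 296 kb away (67 reads), and Rcor3 had its nearest 286 kb away (93 reads). Among the 17974 protein-coding genes without an island the median distance was 184 kb (interquartile range 66.8 to 521), and the 4 distances lie within that range. The windows of Rcor1, Rcor3 and Hdac2 were rich in CpG, as given above.

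Gse1 encodes a coiled-coil protein recovered in purifications of LSD1, CoREST and HDAC proteins. It is annotated over 352.883 kb on the plus strand (chr8:120228501-120581383). Its 22 islands, all inside the gene, held 1900 reads (exact Poisson 95% interval 1816 to 1987) and covered 58.4 kb, or 16.5% of the gene. They made up 0.384% of the islands of the list, 0.402% of its reads and 7.19% of the 306 islands of chromosome 8. The islands spread over 311.4 kb, and 39.4 kb at the 5′ end of the gene were free of them.

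**Figure D2:**
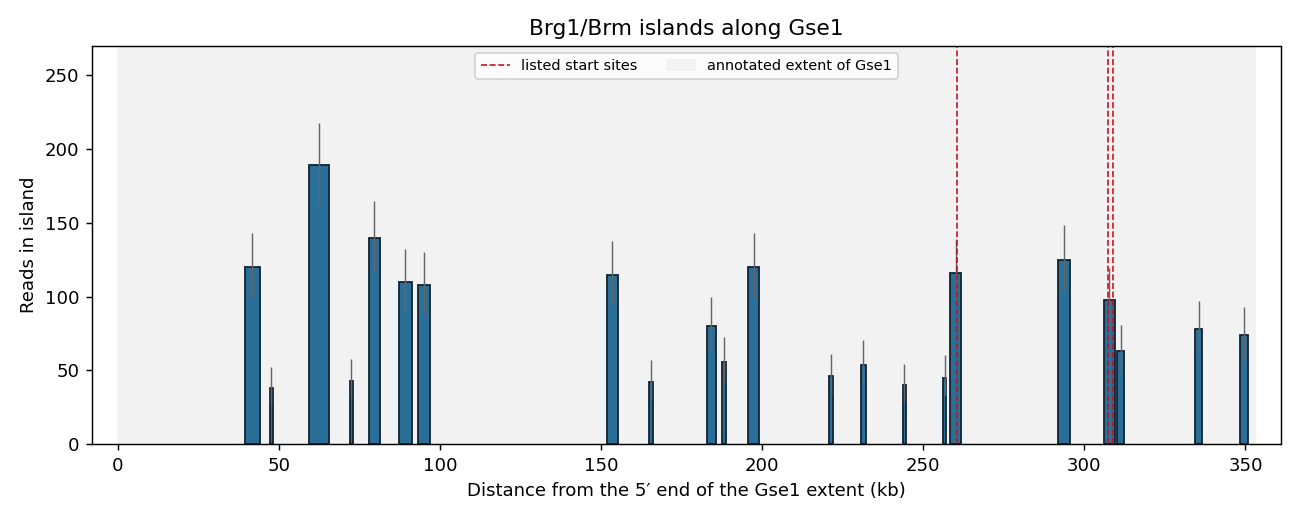
Reads in each of the 22 islands of Gse1 against distance in kb from the 5′ end of the annotated gene; bar width is island width, thin lines are exact Poisson 95% intervals and dashed lines are the 3 listed starts. The tallest bar, with 189 reads, stands in the first group of 7 islands, and the 6 narrowest islands hold 38 to 46 reads each.

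With a break at every gap over 20 kb, a length chosen after the gaps were seen, the islands fall into 5 groups. The first group has 7 islands over 57.6 kb and 748 reads. In order, these are chr8:120267901-120272500 with 120 reads, chr8:120275701-120276500 with 38, chr8:120287901-120294100 with 189, chr8:120300501-120301500 with 43, chr8:120306301-120309900 with 140, chr8:120315701-120319700 with 110 and chr8:120321701-120325500 with 108. The gaps between them were 3.2, 11.4, 6.4, 4.8, 5.8 and 2 kb. It holds the island with the most reads in Gse1, of 6200 bp, and 5 of the 9 islands with 100 reads or more.

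After the longest gap in the gene, 54.8 kb, came the second group, with 5 islands and 413 reads over 47.2 kb. These are chr8:120380301-120383700 with 115 reads, chr8:120393501-120394500 with 42, chr8:120411301-120414100 with 80, chr8:120415901-120417300 with 56 and chr8:120424101-120427500 with 120, separated by 9.8, 16.8, 1.8 and 6.8 kb. Here the first and last islands held the most reads and were the widest, at 3400 bp each. Per 200 bp they held 6.76 and 7.06 reads, against 8.4, 5.71 and 8 in those between them, in order.

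A gap of 21.8 kb led to the next group, of 5 islands and 301 reads over 41 kb, which ends at the first listed start. Its first 4 islands were narrow, 1000 to 1600 bp, and held 46, 54, 40 and 45 reads (chr8:120449301-120450500, chr8:120459101-120460700, chr8:120472101-120473100 and chr8:120484501-120485700). The gaps were 8.6, 11.4, 11.4 and 1.2 kb. The last island, chr8:120486901-120490300, held 116 reads (exact Poisson 95% interval 95.9 to 139) and reached from 1965 bp before the start to 1434 bp after it. It overlaps the long non-coding RNA gene Gm51556. Within this group the island at the start was the widest, at 3400 bp, and held the most reads, with an interval that overlaps none of theirs. Per 200 bp it held 6.82 reads, against 7.67, 6.75, 8 and 7.5 in the first 4 islands, in order.

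The fourth group, after 30 kb, has 3 islands and 286 reads around the later 2 listed starts. The island chr8:120520301-120524100 with 125 reads ended 11757 bp before the second start. The island chr8:120534701-120537900 with 98 reads covered both starts and overlaps the non-coding gene 1700016A09Rik. Only 0.8 kb further, chr8:120538701-120540900 with 63 reads overlaps the microRNA gene Mir7687. The fifth group, after 22 kb, has chr8:120562901-120565100 with 78 reads and chr8:120576701-120579300 with 74, separated by 11.6 kb. The last island ends 2.08 kb before the 3′ end of Gse1 and is also within 5 kb of Gins2, a DNA replication gene that overlaps this end by 118 bp.

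Most of the islands of Gse1 lay before the starts that the promoter table lists. There were 16, with 1346 reads, in the 260 kb between the 5′ end of the annotated gene and the first listed start, and 6, with 554 reads, in the remaining 92.5 kb. Per length the parts were alike, at 6.15 and 6.49 islands per 100 kb. The islands at starts were 2 of the 22 and covered all 3 listed starts.

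The 21 gaps had a median of 9.8 kb (interquartile range 4.8 to 11.6, range 0.8 to 54.8), against a median of 137.2 kb between neighbouring islands of the whole list. Of the 21 gaps, 6 were under 5 kb, 11 were 5 to 20 kb and 4 were longer. In the whole list 10.8% of gaps were 9.8 kb or shorter. Outside the gene the next island lay 73.8 kb before the 5′ end (chr8:120152501-120154700) and 996 kb beyond the 3′ end (chr8:121576901-121579500, 62 reads). Cibar2, the nearest protein-coding gene on the 5′ side, had none.

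The median reads, width and density of the Gse1 islands were each somewhat above those of the list. Reads ranged from 38 to 189 with a median of 79 against 68, and 13 of the 22 were at or above the list's median. At or above its upper quartile of 86 reads were 10 of the 22, against 1464 of 5727 in the list. Widths ranged from 800 to 6200 bp with a median of 2700 bp against 2200, and densities from 5.22 to 9.5 reads per 200 bp with a median of 6.79 against 6.27. The narrow islands had the highest densities, as in the list as a whole. Set against islands of the same width, 10 of the 22 were above the median of that width, 3 equal to it and 9 below, and the ratio to it ran from 0.93 to 1.39 with a median of 1. In 4 of the 22 the Poisson interval lay above that median, and in 0 below it. The highest ratio was that of chr8:120306301-120309900, with 140 reads (exact Poisson 95% interval 118 to 165) where islands of 3600 bp had a median of 101.

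**Figure D3:**
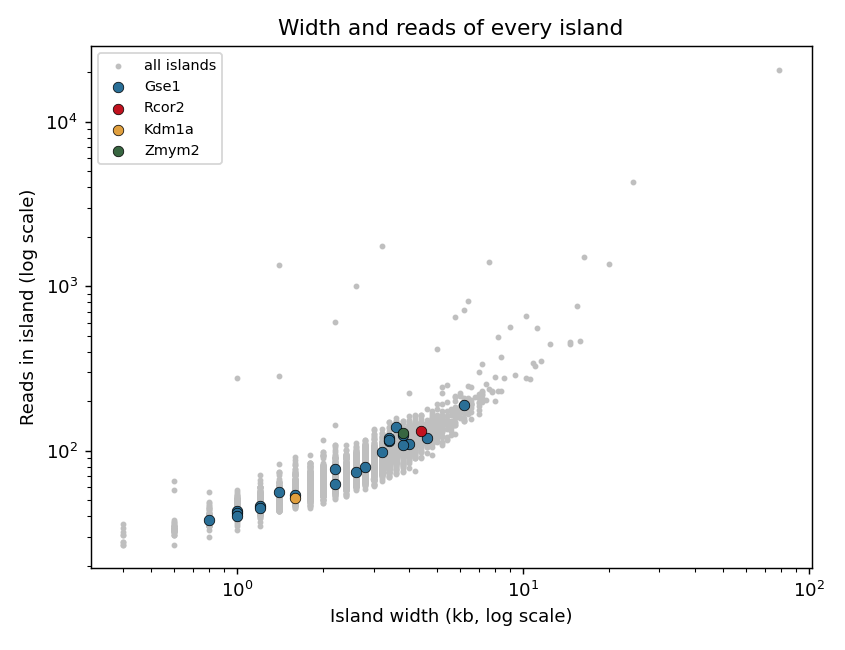
Reads against width in kb of all 5727 islands, both on log scales, 1 point per island, with those of CoREST genes in colour. The 25 coloured points lie within the main band of the list, from the narrowest Gse1 island (38 reads) to the widest (189 reads).

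The genes most like Gse1 by number of islands were Nfia with 18, Lrba with 15, and Cacna2d1 and Tcf4 with 10 each. Nfia encodes a nuclear factor I protein of granule neurons, Lrba a vesicle trafficking protein, Cacna2d1 a calcium channel subunit and Tcf4 a bHLH factor. All 4 are long, from 345 kb for Tcf4 to 559 kb for Lrba. Per 100 kb (with 5 kb on each side) Gse1 had 6.06 islands, Nfia 3.27, Tcf4 2.82, Lrba 2.64 and Cacna2d1 2.22. The island sums of Gse1 and Nfia were close, at 1900 and 1864 reads. The strongest island of Nfia had 231 reads against 189 in Gse1. Median gaps were 9.8 kb in Gse1, 12.4 in Nfia, 6.4 in Lrba, 8.2 in Tcf4 and 26 in Cacna2d1, and the longest were 54.8, 87, 115, 117 and 70.4 kb. Lrba and Tcf4 thus had tighter groups of islands than Gse1, set apart by longer empty stretches.

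The first place of Gse1 depended on which islands were counted. When the 2938 islands with at least the median count were kept, Nfia had 16 and Gse1 and Lrba 13 each, and with islands of at least 2 kb Nfia had 17 and Gse1 14. With islands up to 5 kb apart joined, both had 16. With the 1464 islands of highest count Gse1 was first again, with 10 against 9 in Lrba and 8 in Nfia.

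**Figure D4:**
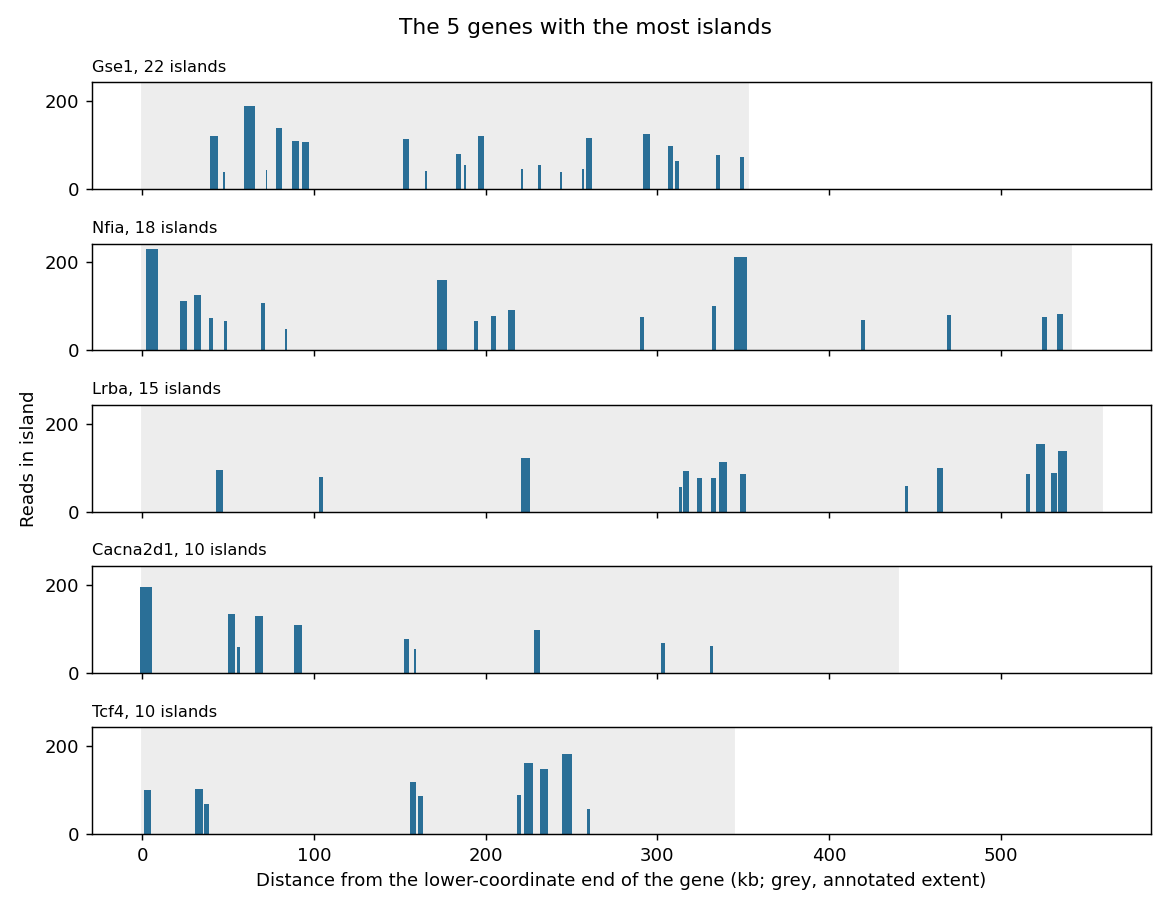
Reads in each island of the 5 genes with the most islands against distance in kb from the lower-coordinate end of the gene, 1 panel per gene, bar width being island width and grey the annotated extent. The 22 islands of Gse1 are spread over most of the gene, while those of Lrba and Tcf4 leave stretches of over 100 kb empty.

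Genes as long as Gse1 mostly had few islands or none. Of 298 other protein-coding genes with a length within 20% of that of Gse1, 151 had no island, the median was 0 and the highest was the 10 of Tcf4. The number of genes in this class with an island was 147 (49.3%).

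**Figure D5:**
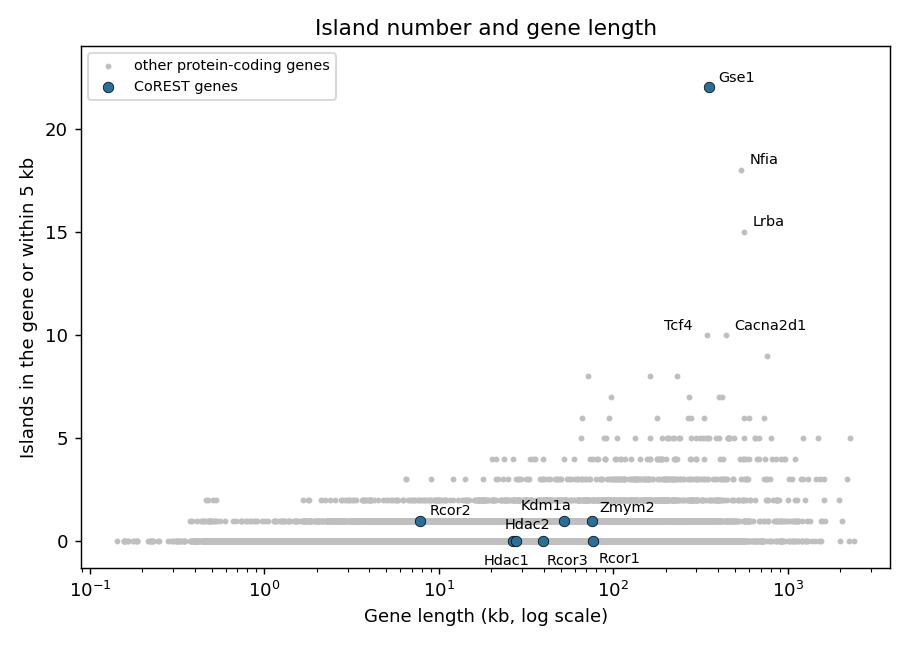
Number of islands in a gene or within 5 kb against gene length in kb on a log scale, 1 point per protein-coding gene, with the 8 CoREST genes in blue. Gse1, at 22, is the highest point, and the other 7 lie at 0 or 1 among genes of their length.

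Proteins that recruit CoREST or bind to it were described with a list of 20 genes. Of these, 8 had an island in the gene or within 5 kb (40%) and 12 had none, beside 16.9% of all protein-coding genes. The median number was 0 in both. The shares were not matched for gene length. The list had a median length of 24.5 kb, while Zeb1, Phf21a, Ctbp2, Zeb2 and Sfmbt1, all with an island, are 108 to 184 kb long. Rreb1, of 174 kb, had none. The 4 genes with the highest counts were Zeb1, Zeb2, Ctbp2 and Phf21a. Zeb1, a zinc finger repressor of granule neuron progenitors, had 4 islands, of 67, 164, 53 and 72 reads. Its paralogue Zeb2 had 5, of 103, 82, 54, 70 and 148 reads, the last across a listed start. Ctbp2, a corepressor that binds ZEB proteins, had 1 island of 143 reads (exact Poisson 95% interval 121 to 168), and Phf21a, whose product reads unmethylated lysine 4 of histone H3 in the CoREST assembly, had 1 of 117 (96.8 to 140). The islands of Ctbp2 and Phf21a lay across the 5′ end of the annotated gene and not across a listed start. The remaining genes had 1 island each, of 61 to 84 reads, among them Ctbp1, Zfp217 and Sfmbt1.

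REST itself, the best known recruiter, had no island, nor did Gfi1, Gfi1b, Insm1, Snai1, Snai2 or Tal1, all genes of DNA-binding factors that use LSD1 or CoREST. Hmg20b, which encodes a DNA-bending subunit of the assembly, and Kdm1b, the paralogue of Kdm1a, had none either.

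HDAC1 and HDAC2 also serve the NuRD, Sin3 and MiDAC complexes. Of 25 genes of these complexes, 9 had an island (36%) and 16 had none, again beside 16.9% of all protein-coding genes and not matched for gene length. With islands counted only in the gene itself, 7 of the 25 had one, beside 14.7% of all protein-coding genes. Ing1, a histone reader of the Sin3 complex, had an island of 128 reads (exact Poisson 95% interval 107 to 152) across a listed start. The islands of the NuRD genes Mbd3, with 107 reads, and Mta1, with 87, lay outside the gene on the 3′ side, 4484 and 2784 bp away. Mideas, the scaffold gene of MiDAC, had 1 inside the gene with 80 reads. The other 5 genes held islands of 48 to 78 reads, and Chd3 was the only gene of the 9 with 2. The scaffold genes Sin3a and Sin3b and the histone chaperone genes Rbbp4 and Rbbp7 had none.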

How the data were processed

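The authors deposited 1 island list for the ChIP library, with a chromosome, start, end and whole number per island and no column names. The deposited whole number was taken as the authors' read count per island, from its values, after alignment and island calling with tools among SICER 1.1, Picard 1.127 and Bowtie 0.12.7, per the submitters' processing notes. These also name mm10 and mm9, with no role. The SICER settings and the use of the input are not given in the labels. Coordinates were read as mm10 and are printed 1-based. Widths were multiples of 200 bp in 5724 of 5727 islands. Counts are not scaled for depth, and a wider island holds more reads (Spearman 0.917 over all islands, which are not replicates).

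Islands were assigned to RefSeq gene extents (GRCm38.p6) in Python 3.11.15 with pandas 2.3.3, after the assignment was tested on simulated data. Density is reads per 200 bp. Intervals on reads are exact Poisson, at 95%; shares of chosen genes carry none. No test was made, since there is 1 ChIP library. Strand and starts come from the RefSeq promoter table. Named genes are the members, the 4 next by island number, coding neighbours of members with an island, and up to 4 genes per list by reads, others being named by count or role after their values were seen. Some genes that these rules take are not reported here. Members and lists were chosen with earlier results of these data known.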

Additional observations from a re-analysis of the deposited data

How the results depend on the processing

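Of 112 alternative values over 13 settings, 93 stayed within 1.5 times the reported value and 19 did not. Counting islands within 5 kb of a gene end only left 4 islands at the members and 1 in Gse1, with 74 reads. This put Gse1 at rank 250, since its other islands lie further from the gene ends. It shared that rank with every other gene with 1 island, of 2823 protein-coding genes with an island in this setting. With islands at or above the median count the members held 15, Gse1 held 13 and ranked 2, and 2089 protein-coding genes had an island. With the 1464 islands of highest count the members held 12 and Gse1 10, with 1241 reads and a median gap of 15400 bp, and 1127 protein-coding genes, 4 CoREST partners and 3 genes of the NuRD, Sin3 and MiDAC list had an island. With islands of at least 2 kb the members held 16 and Gse1 14, at rank 2. With all annotated genes, 5593 had an island. Fewer islands enter these counts by construction, apart from the last, where more genes do. Windows of 0, 1 and 10 kb, midpoints, the joining of islands and the removal of the densest islands moved no value by more than 1.5 times. Only called regions are listed and the library's depth is unknown, so weak binding at the genes without an island was not detectable here. No paired analysis was possible because there is 1 ChIP library.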

Other observations

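Windows of the length of Gse1 with 5 kb on each side (363 kb) were laid from the start of every island, a description added after the values were seen. The window with the most islands was that of Gse1, with 22. Among the next that did not overlap it or each other, a window on chromosome 13 that overlaps Map3k1, a kinase gene, held 15 islands. A window on chromosome 4 that overlaps Nfib, a nuclear factor I gene, also held 15. On chromosome 3 a window that overlaps part of Lrba, with Mab21l2 and Dclk2, held 14. These counts are for the whole window and not for the gene: Map3k1 had 8 islands in the gene or within 5 kb.

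Among the 2427 protein-coding genes of at least 100 kb, Gse1 had the most islands per 100 kb, 6.06, in a ranking also added after the values were seen. It uses the island number for which Gse1 was chosen. Shorter genes were not ranked, and its first place does not extend to them. Map3k1, in the class of 20 to 80 kb, had 8 islands, which is a higher rate than that of Gse1.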
